A study of Catostomus macrocheilus with 21 samples.

Results

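Liver transcripts that were clearly measurable in every fish were compared between 2 collection sites on the Columbia River, Longview and Skamania. The fish were wild largescale suckers (Catostomus macrocheilus), labelled as reproductive adults, with 7 fish from Longview and 8 from Skamania, and each fish gave 1 liver RNA and 1 Agilent 1-colour array. The series holds 21 arrays from 3 sites, and the 6 arrays from Columbia City entered a fit of all 3 sites, an alternative filter and the comparison of levels. No treatment is named in the labels, and neither sex, body size nor contaminant load is given per fish. Site was thus the only labelled factor, and differences between sites cannot be told apart from those in sex, body size or contaminant load. The series was set up to relate contaminant exposure to gene expression, and the comparison asks how liver expression differed between these sites. A probe was kept if the scanner software marked it well above background on all 15 arrays of Longview and Skamania, which kept 7274 of 14758 probes, or 49.3%. These are called bright probes below.

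The liver is the organ that takes up and breaks down foreign compounds, makes most blood plasma proteins and, in egg-laying fish, makes egg yolk precursors under the control of oestrogen. Largescale suckers feed on the river bottom and can take in contaminants bound to sediment. Probes on this array carry sequence names from a sucker transcript assembly. None of the names was paired with a gene here, so no detoxification, yolk or stress gene can be named, and the liver label was not checked against marker genes.

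Levels are log2 processed signals minus the 75th percentile of the array, so a level of 0 is the brightness that 25% of all probes on that array exceed. Differences are Longview minus Skamania on the log2 scale, so 1 is 2-fold. The number of arrays limits the precision. The count of probes well above background ran from 8165 to 11801 per array, and the correlation between 2 arrays over bright probes lay between 0.804 and 0.963. Nothing in the labels says that fish of a site were caught or handled separately, so the p-values measure the spread between these fish and their arrays.

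Among bright probes, 1 of 7274 differed between the sites at an adjusted p under 0.05, which is 0.0137% (limma moderated test, two-sided, Benjamini-Hochberg adjustment over all bright probes). It was LSS_UF_21279, higher at Longview, and no bright probe was called lower. At an unadjusted p under 0.05 there were 638 probes, or 8.77%, with 445 higher (6.12%) and 193 lower (2.65%) in Longview fish. That split depended on the scaling: 69.7% of the 638 were higher with the 75th percentile, 56.9% with quantile normalization, 57.7% with the 75th percentile of bright probes alone, and 48.8% of 608 with median centring. The median difference over all bright probes was 0.050, and its quartiles were -0.18 and 0.27.

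LSS_UF_21279 carries the sequence name SuckerfishLSS_454Assem.5320.C1___1_nrnt, that of an assembled contig. It was among the brighter probes, with a mean of 10843 units, above 93.7% of bright probes. At Longview its lowest, median and highest levels were 4.47, 4.93 and 5.21, and at Skamania they were 3.33, 3.74 and 3.99. Every Longview fish lay above every Skamania fish, with a gap of 0.48 between the nearest fish, the widest gap of all bright probes. Longview fish averaged 4.84 ± 0.28 (SD, n = 7), and Skamania fish averaged 3.68 ± 0.24 (SD, n = 8). Longview exceeded Skamania by 1.16 (SE 0.17), or 2.24-fold, with a 95% interval from 1.75-fold to 2.86-fold (limma adjusted p = 0.0198).

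Columbia City fish stood between the other sites for LSS_UF_21279, at 3.77, 4.08 and 4.41 for the lowest, median and highest of 6 fish. Their highest fish was below the lowest Longview fish, and their range overlapped that of Skamania. In a fit of all 21 arrays, Longview minus Columbia City was 0.80 (limma adjusted p = 0.275) and Columbia City minus Skamania was 0.36 (limma adjusted p = 0.582), and neither was called. These comparisons share arrays with the first. Over all bright probes 0 were called in either, while 8.94% of Longview minus Columbia City and 8.32% of Columbia City minus Skamania had an unadjusted p under 0.05 (limma). In that fit Longview minus Skamania had an adjusted p of 0.00183.

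The size of the LSS_UF_21279 difference varied little with the processing, but its call did not always hold. The difference was 1.28, 0.93 and 1.17 within slides 1, 2 and 3, each with 2 or 3 fish per site. With slide as a fixed block it was 1.13 (limma adjusted p = 0.0999). Leaving out 1 array at a time gave 1.1 to 1.22, with adjusted p from 0.0135 to 0.0781. The call was lost without Longview replicate 1, 3 or 6 or without Skamania replicate 1, 2 or 8.

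Fish of Longview and Skamania had fully separate ranges for 20 of 7274 bright probes, or 0.275%. For 18 of them all Longview fish were above all Skamania fish (0.247%), and for 2 all Skamania fish were above (0.0275%). Only the scaling given above for the levels was used for these counts. Median centring moved the median difference over all bright probes from 0.050 to -0.023. Whether the separate ranges or their split by direction hold under other scalings was not tested. Of the 18, LSS_UF_14209 had 1 Longview value missing, so 6 Longview fish were compared for it. The differences of the 18 ranged from 0.45 to 1.16, with a median of 0.86, and the gap between the nearest fish of the 20 ranged from 0.0087 to 0.48. Adjusted p-values of the 20 ran from 0.0198 to 0.353, so apart from LSS_UF_21279 none was called. They were not confined to one brightness, with mean signals from 69.6 to 27029 units.

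LSS_UF_19564 had the second smallest p. Its Longview fish were at 1.02, 1.30 and 1.64 (lowest, median, highest), and its Skamania fish at -0.12, 0.03 and 0.99. The nearest Skamania fish was replicate 3, at 0.99, while 6 of the other 7 Skamania fish were at or below 0.29 and replicate 4 was at 0.70. Longview was higher by 1.11 (SE 0.20), or 2.16-fold (limma adjusted p = 0.112). Without Skamania replicate 3 it was 1.22 (limma adjusted p = 0.0135), and without replicate 4 it was 1.18 (limma adjusted p = 0.0403). These were the 2 calls among 15 fits that each left out 1 array, whose adjusted p-values reached 0.268. Leaving out a fish that lies toward the other site enlarges a difference by construction. Calls gained in that way, here and below, are therefore not read as support. Several come from leaving out the same fish, Skamania replicate 3, without which 13 probes were called.

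LSS_UF_17485 and LSS_UF_12072 also had separate ranges. LSS_UF_17485 was at 0.59, 0.96 and 1.30 in Longview fish and at -0.44, -0.03 and 0.53 in Skamania fish, a difference of 0.91 (SE 0.18, limma adjusted p = 0.122). LSS_UF_12072 was at 1.83, 2.01 and 2.37 in Longview fish, a narrow span, and at 0.24, 1.07 and 1.78 in Skamania fish. Its SD was 0.23 (n = 7) at Longview and 0.58 (n = 8) at Skamania. LSS_UF_12072 differed by 1.12 (SE 0.24, limma adjusted p = 0.122), and by 1.23 without Skamania replicate 3 (limma adjusted p = 0.0470), the 1 call among 15 such fits, with adjusted p-values up to 0.301.

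Dimmer probes with separate ranges were LSS_UF_14209 and LSS_UF_11790, with mean signals of 69.6 and 94.0 units. LSS_UF_14209 ran from -2.84 to -2.0 in 6 Longview fish and from -4.25 to -2.87 in 8 Skamania fish. Its Longview replicate 4 spot carried an outlier flag and was left out. LSS_UF_11790 ran from -2.65 to -1.56 at Longview and from -3.76 to -2.66 at Skamania, with a gap of 0.0087 between the nearest fish. With normexp background correction LSS_UF_14209 and LSS_UF_11790 differed by 0.69 and 0.63, against 1.12 and 0.97, and LSS_UF_14345, at 94.2 units, differed by 0.58 against 0.88. At Columbia City LSS_UF_14209 and LSS_UF_11790 passed the background flag on 5 of 6 arrays.

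The 2 bright probes with all Skamania fish above all Longview fish were LSS_UF_22834 and LSS_UF_23102. LSS_UF_22834 was at 0.60, 0.98 and 1.19 at Longview and at 1.27, 1.57 and 1.83 at Skamania. This is a small but tight difference of -0.65 with an SE of 0.15, or 1.57-fold lower at Longview (limma adjusted p = 0.187). LSS_UF_23102 was at -1.97, -1.05 and -0.46 at Longview and at -0.44, 0.09 and 0.98 at Skamania. Its difference was -1.15 (SE 0.26, limma adjusted p = 0.138), and only 0.019 separated the nearest fish.

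The other probes with the smallest p-values had overlapping ranges. Of the 12 with the smallest p among those higher at Longview, 6 had separate ranges, and the differences of the 12 ran from 0.88 to 2.54. Apart from LSS_UF_21279 their adjusted p-values lay between 0.112 and 0.136. LSS_UF_10339 and LSS_UF_14123 had the largest of these differences, and both varied widely between fish of a site.

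LSS_UF_10339 was at -0.27, 0.78 and 1.74 in Longview fish and at -3.54, -1.76 and 0.05 in Skamania fish. In 7 of 8 Skamania fish it was below the lowest Longview fish, and Skamania replicate 3, at 0.05, was the exception. Longview was higher by 2.54 (SE 0.50), or 5.80-fold (limma adjusted p = 0.122), and by 2.80 without that Skamania fish (limma adjusted p = 0.0272). That was the 1 call for LSS_UF_10339 among 15 fits without 1 array, with adjusted p-values up to 0.276. LSS_UF_14123 was at 0.65, 2.13 and 3.36 in Longview fish and at -2.23, -0.15 and 0.72 in Skamania fish, a difference of 2.37 (SE 0.49, limma adjusted p = 0.122).

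LSS_UF_15936, LSS_UF_15229, LSS_UF_14805 and LSS_UF_14345 completed the set higher at Longview. Their differences were 1.5, 1.26, 1.04 and 0.88 (limma adjusted p = 0.122 for each). For LSS_UF_15229, LSS_UF_14805 and LSS_UF_14345, 6 of 7 Longview fish lay above all Skamania fish. For LSS_UF_15936 that held for 4 of 7, with Skamania replicate 6 at 3.23. Without that fish LSS_UF_15936 differed by 1.68 (limma adjusted p = 0.0298). Without Skamania replicate 3, LSS_UF_15229 and LSS_UF_14805 had limma adjusted p-values of 0.0472 and 0.0470. Each of these 3 probes was called in 1 of 15 fits without 1 array, and the adjusted p-values reached 0.276, 0.301 and 0.276 for LSS_UF_15936, LSS_UF_15229 and LSS_UF_14805. LSS_UF_14805 was the brightest of the 24 probes with the smallest p in either direction, with a mean of 14706 units.

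Of the 12 probes with the smallest p among those lower at Longview, none was called. At an unadjusted p under 0.05, 193 bright probes were lower, these 12 among them. Their differences ran from -0.65 to -2.25 and their adjusted p-values from 0.122 to 0.259. LSS_UF_22247 had the smallest p. It was at -0.17, 0.77 and 1.55 in Longview fish and at 1.52, 2.10 and 3.00 in Skamania fish, so that Longview replicate 6 overlapped with Skamania replicate 1 alone. Its difference of -1.45 (SE 0.27) is 2.74-fold lower at Longview (limma adjusted p = 0.122), and without Skamania replicate 3 the limma adjusted p was 0.0485. With the first principal component of the bright probes as a covariate it was -1.60 (limma adjusted p = 0.0377), past the threshold. LSS_UF_22247 was called in 3 of 20 alternatives, with adjusted p-values up to 0.999, and in 1 of 15 fits without 1 array, with adjusted p-values up to 0.273.

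LSS_UF_17897 and LSS_UF_17857 followed, with differences of -0.96 and -1.10 (limma adjusted p = 0.122 for both). For each, 6 of 7 Longview fish lay below all Skamania fish. The exception was Longview replicate 2 for LSS_UF_17897, at 1.99 against 0.79 to 1.18 in the other 6, and without it the difference was -1.09 (limma adjusted p = 0.0491), the 1 call among 15 such fits, with adjusted p-values up to 0.301. For LSS_UF_17857 it was Longview replicate 5, at -0.30. LSS_UF_24595, LSS_UF_18675, LSS_UF_16556, LSS_UF_24512, LSS_UF_20941 and LSS_UF_16696 had differences of -0.89, -1.47, -1.26, -1.11, -0.77 and -1.08 (limma adjusted p from 0.198 to 0.259). Within slides 1, 2 and 3 LSS_UF_24595 differed by -1.36, -1.07 and -0.11. For LSS_UF_18675 only 2 of 7 Longview fish lay below all Skamania fish, with Skamania replicate 4 at -2.81. Without that fish its difference was -1.75 (limma adjusted p = 0.0193), the 1 call among 15 such fits, with adjusted p-values up to 0.401. With normexp background correction LSS_UF_18675, LSS_UF_16556 and LSS_UF_16696, with mean signals of 194, 130 and 84.8 units, had smaller differences of -0.78, -0.46 and -0.33.

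LSS_UF_12776 differed most among these 12, by -2.25 with an SE of 0.61, or 4.77-fold lower at Longview (limma adjusted p = 0.259). It was at -1.38, 1.88 and 2.39 in Longview fish and at 1.83, 3.63 and 5.29 in Skamania fish. Of the 8 Skamania fish 6 were above the highest Longview fish. Longview replicate 2, at -1.38, stood apart from the other Longview fish, which were between 0.88 and 2.39.

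The fitted difference reached 2-fold for 224 bright probes, 101 higher (1.39%) and 123 lower (1.69%) at Longview. Of these, 71 higher and 51 lower had an unadjusted p under 0.05. Their median SD between fish of a site was 1.34, against 0.53 over all bright probes.

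LSS_UF_10581 had the largest difference of all, 4.02 (SE 1.37), with a 95% interval from 2.18-fold to 121-fold (limma adjusted p = 0.380). In Longview fish it was at -2.83, 3.72 and 5.25, and in Skamania fish at -4.20, -2.71 and 3.95. The fish of each site were split: 5 Longview fish lay between 3.53 and 5.25 and the other 2, replicates 2 and 6, at -2.83 and -2.76. At Skamania replicate 3 was at 3.95 and the other 7 fish lay between -4.20 and -0.88. Within slides 1, 2 and 3 the difference was 6.29, -1.40 and 7.72, so its direction on slide 2, which held Longview replicates 2 and 6 and Skamania replicate 3, was opposite.

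LSS_UF_10134 was one of the brightest probes, with a mean of 135745 units, above 99.1% of bright probes. It was at 4.26, 8.71 and 9.50 in Longview fish and at 2.52, 5.22 and 8.65 in Skamania fish. Longview replicate 2, at 4.26, was far from the other 6 Longview fish, which lay between 8.25 and 9.50. Longview was higher by 2.75 (SE 0.86, limma adjusted p = 0.325). LSS_UF_11822 was at -2.90, 3.04 and 8.19 in Longview fish and at -2.31, -0.76 and 7.11 in Skamania fish, with a difference of 2.70 and an SE of 1.54 (limma adjusted p = 0.638). That difference is smaller than the SD between fish of either site, 3.48 (n = 7) and 3.26 (n = 8).

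Of the probes lower at Longview, LSS_UF_24518 was at -3.35, 4.31 and 6.36 in Longview fish and at 2.53, 5.25 and 6.71 in Skamania fish. Its difference of -2.93 (SE 1.25, limma adjusted p = 0.519) came with Longview replicates 1 and 6 at -3.35 and -2.34, while the other 5 Longview fish lay between 1.90 and 6.36. LSS_UF_11895 differed by -2.86 (SE 0.96, limma adjusted p = 0.369), and Longview replicate 2, at 2.87, was the highest of its site. LSS_UF_18005 was at -2.09, 0.68 and 2.96 in Longview fish and at -1.20, 4.03 and 5.44 in Skamania fish. For LSS_UF_18005, 7 of 8 Skamania fish were above all Longview fish, and the exception was replicate 3. Its difference was -2.75 (SE 0.89, limma adjusted p = 0.336), and -3.43 without that fish (limma adjusted p = 0.0485), the 1 call among 15 such fits, with adjusted p-values up to 0.579.

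The spread between fish was larger than the noise between spots. Among 23 bright probes printed 10 times, the SD between spots of an array had a median of 0.086, against a median of 0.66 between fish of a site. Differences between arrays are part of this SD. Over all bright probes the pooled SD within a site had a median of 0.53, and site took a median of 4.85% of a probe's variance. Such a share is positive even without a site difference, and its size under random labels was not computed. For 67.8% of the bright probes the 95% interval of the difference lay wholly inside 2-fold in both directions. Intervals of single probes are not adjusted for their number.

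The SD between fish was larger at Longview for 62.0% of bright probes, with medians of 0.55 at Longview and 0.49 at Skamania. The share was 54.0% without Longview replicate 2 and 53.7% without Longview replicate 6. It was 68.4% without Skamania replicate 6. No test was made of this share, since probes of one array are not independent.

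The first principal component of the bright probes held 32.6% of the variance, and its scores spread widely between fish within both sites. At Longview, 5 fish had scores between -35.7 and -20.9, replicate 4 was at 2.48 and replicate 2 at 59.1. At Skamania, replicates 3, 4 and 6 lay between -44.0 and -29.8 and the other 5 between 21.3 and 47.7. The site means differed by -18.6 (exact permutation test, two-sided, p = 0.317, adjusted 0.502 over 6 array measures). Within slides 1, 2 and 3 the difference was -34.9, -8.12 and -18.1. Without 1 array it ranged from -30.1 to -13.0, with exact permutation p from 0.0806 to 0.485. A site difference on this component was thus neither shown nor excluded. Some probes with large differences shifted with this component as a covariate: LSS_UF_10134 went from 2.75 to 1.87, LSS_UF_11895 from -2.86 to -1.95 and LSS_UF_11822 from 2.70 to 1.38. Others moved little. LSS_UF_21279 went from 1.16 to 1.15. LSS_UF_18005, at -2.75, stayed between -2.89 and -2.50 in 20 alternatives that include this covariate but not single slides or single arrays left out. Within slides 1, 2 and 3 it was -4.88, -0.37 and -2.25, and without 1 array it ranged from -3.43 to -2.27.

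The third component, with 8.76% of the variance, did differ between the sites. Longview fish averaged -13.3 ± 17.3 (SD, n = 7), against 11.6 ± 9.04 (SD, n = 8) in Skamania fish (exact permutation test, two-sided, p = 0.00249, adjusted 0.0149 over 6 array measures). Longview replicates 4 and 5, at 2.40 and 5.27, lay within the Skamania range, and Skamania replicates 3 and 5, at 2.28 and -2.99, lay within the Longview range. The direction was the same within slides 1, 2 and 3, at -17.6, -25.7 and -21.0. The sign of a component is arbitrary. Over the 1000 bright probes with the largest SD, the third component differed by -12.5 (exact permutation p = 0.0441, adjusted 0.151) and did not pass. That component was matched by rank alone and ordered the fish differently. Longview replicate 4 was at -21.1 on it against 2.40, and replicate 2 at -1.91 against -30.4. It therefore cannot tell whether the difference on the first set of probes holds. The second component differed by 5.51, within the spread between fish (exact permutation p = 0.663, adjusted 0.793).

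Other array measures were compared as well. The number of probes well above background averaged 10594 ± 832 (SD, n = 7) in Longview fish, against 9648 ± 847 (SD, n = 8) in Skamania fish (exact permutation p = 0.0503, adjusted 0.151). Without 1 array its p ranged from 0.0220 to 0.106. The 75th percentile and the negative control probe differed by 0.079 and -0.12 on the log2 scale (exact permutation p = 0.793 and 0.334). The part of these measures in the probe differences was not tested.

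The median difference was not the same at every brightness. In the dimmest class, from 32 to 64 units with 157 probes, it was 0.092, and 12 probes were higher and 1 lower at an unadjusted p under 0.05. From 64 to 256 units, with 1975 probes, it was 0.040, with 103 higher and 47 lower. In the class from 256 to 1024 units, with 2528 probes, the median difference was 0.017, and 113 probes were higher and 83 lower at an unadjusted p under 0.05. From 1024 to 4096 units, with 1634 probes, the median was 0.061, and 105 were higher and 40 lower. From 4096 to 16384 units, with 640 probes, the median was 0.13, and 75 were higher and 16 lower. At or above 16384 units, with 340 probes, it was 0.14, and 37 were higher and 6 lower. From the dimmest class up, the higher and lower probes together were 8.28%, 7.59%, 7.75%, 8.87%, 14.2% and 12.6% of their class. The share over all bright probes was 8.77%. These counts and medians depended on the processing. At or above 16384 units, 20 were higher and 21 lower with quantile normalization, and 32 and 7 with median centring. From 256 to 1024 units, 107 were higher and 85 lower with quantile normalization, and 75 and 134 with median centring. In the classes from 256, 4096 and 16384 units the medians were -0.056, 0.062 and 0.069 with median centring. They were 0.0044, 0.022 and -0.022 with quantile normalization, and 0.027, 0.039 and 0.038 with normexp. With normexp the 2 dimmest classes had the highest medians, 0.27 and 0.16. Within slides 1, 2 and 3 the median of the class from 4096 to 16384 units was 0.14, 0.088 and 0.14. For the class from 32 to 64 units it was 0.088, 0.17 and -0.025, and from 64 to 256 units 0.078, 0.11 and -0.067. The remaining classes had positive medians on every slide.

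The edge of the rule on background lay among dim probes. The 100 dimmest bright probes had mean signals up to 57.5 units and a median difference of 0.10. Just outside, 799 probes were well above background on 14 of 15 arrays, with a median signal of 73.0 units and a median difference of 0.21. The array that missed was a Skamania array for 656 of them and a Longview array for 143. Of the 15 arrays, 8 are from Skamania. A miss at Skamania goes with a low level there, so the choice of these probes favours a positive difference. Nothing is therefore read from the 0.21.

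Most bright probes had names of assembled contigs. These made up 6770 of the 7274, with a median difference of 0.046, and 398 were higher and 187 lower at an unadjusted p under 0.05. That is 8.64% of the contig names in all, near the share over all bright probes. Another 344 bore names of the pattern of single reads and were dimmer, with a median signal of 206 units against 606. Their median difference was 0.097, with 37 higher and 5 lower, or 12.2% in all, against 8.77% over all bright probes. The split by direction over all bright probes depended on the scaling, and the part of brightness was not tested. Of all probes with single-read names 18.2% were bright, against 54.2% of those with contig names.

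Probes whose contig names share an assembly number were also compared, although how such contigs are related is not stated. Among 195 assembly numbers that exactly 2 bright probes share, 119 pairs (61.0%) had differences of the same sign. The share for unrelated pairs was not computed, and 56.1% of all bright probes had a positive difference. The correlation between the differences was 0.480 (Pearson) and 0.328 (Spearman) across pairs, which share their arrays and scaling. Across the 15 fish the 2 probes of a pair had a median correlation of 0.436. LSS_UF_14805 shared its number with LSS_UF_14806, whose difference was 0.46 (SE 0.17, limma adjusted p = 0.445), against 1.04 for LSS_UF_14805. LSS_UF_10134 shared its number with LSS_UF_10133, at 1.21 (SE 0.73, limma adjusted p = 0.656). LSS_UF_23102 shared its number with LSS_UF_18875, which is not a bright probe, being well above background on 8 of 15 arrays. LSS_UF_24512 and LSS_UF_24518 both carry the number 4, which 64 bright probes share and which is not among the 195.

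At Columbia City 97.1% of the bright probes were also well above background on all 6 arrays. Of the 30 named probes, 26 had a Columbia City mean between those of Longview and Skamania, as had 28.9% of all bright probes and 64.7% of the 224 that differed by 2-fold or more. The named probes were chosen for a wide separation of the outer sites, which favours a Columbia City mean in between, so nothing is read from the 26. Against Columbia City none of the 30 was called in the fit of all arrays, and the lowest limma adjusted p was 0.275 for Longview minus Columbia City and 0.539 for Columbia City minus Skamania. For LSS_UF_18675 Columbia City averaged -0.87 ± 0.63 (SD, n = 6), near Skamania at -0.89 ± 0.83 (SD, n = 8), and Longview was at -2.36 ± 0.64 (SD, n = 7). For LSS_UF_14805 Columbia City averaged 5.19 ± 0.84 (SD, n = 6), near Longview at 5.21 ± 0.35 (SD, n = 7), and Skamania was at 4.17 ± 0.40 (SD, n = 8).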

How the data were processed

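Liver RNA was cleared of DNA, and Cy3-marked cRNA made from it was hybridised in one colour, per the labels' protocols. Each array was read with Agilent Feature Extraction, version 10.1.1.1 per the file headers and 9.1 per the submitters' processing notes. Spot intensity on a linear scale and 0 or 1 spot flags come from the deposited scanner files, per the file headers. The authors' own log2 values, in a deposited table, have a median of 6.10 over all columns together, and how they were scaled was not stated. Here, log2 of the processed signal was taken, repeated spots were averaged, 536 control spots per array and 368 outlier-flagged of 228120 spot values were left out, and the array's 75th percentile over non-control probes was subtracted. No non-control spot was saturated. A probe printed 10 times was bright if all its spots were. Among bright probes 46 values were missing, and each fit dropped them. limma 3.58.1 in R 4.3.3 fitted 1 mean per site (13 residual degrees of freedom). Array measures were tested with exact permutation tests (scipy 1.17.1).

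Slides 1, 2 and 3 held 2, 3 and 2 Longview and 3, 2 and 3 Skamania arrays; slide and scan time coincide. Named probes were the 12 with the smallest p in each direction, every called probe, and the 3 with the largest difference in each direction. The members, lists and rules were chosen with earlier results of these data known. Marker and gene lists were not used, since no probe was paired with a gene. The fit was tested on simulated data with 7274 probes, 50 of them changed at each fold. It called 6%, 46%, 82% and 98% of the changes of 1.5-, 2-, 4- and 8-fold, and 10 of its 126 calls were false. Most of the 1.5-fold changes were thus missed. The Benjamini-Hochberg adjustment is stricter where fewer probes are called, and the real comparison had 1 call against 126 in the simulation. The simulated shares can therefore be higher than the recovery in these data. They test the fit and do not estimate how many real changes between these fish were found. The alternatives covered scaling, background correction, the deposited values, the filter, slide, array row, a replicate block, priors, array weights, a principal component, thresholds and single arrays. The normexp alternative used median spot signals.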

Additional observations from a re-analysis of the deposited data

Results flagged for a closer look

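Single fish stood far from the others of their site, by Dixon's criterion on the gap to the nearest fish, in 10 of 102 groups of values examined. Chance flags about 1 in 20 of independent groups. The groups here share fish, and most are named probes chosen from these same arrays, so no excess over chance is read from the 10. Longview replicate 2 stood apart for LSS_UF_10134 (level 4.26, the others 8.25 to 9.50), LSS_UF_12776 (-1.38, the others 0.88 to 2.39), LSS_UF_17897 (1.99, the others 0.79 to 1.18) and the first principal component (score 59.1, the others -35.7 to 2.48). Longview replicate 6 was low for LSS_UF_17857 (-1.87, the others -0.92 to -0.30). Skamania replicate 3 was high for LSS_UF_10581 (3.95, the others -4.20 to -0.88) and low for LSS_UF_18005 (-1.20, the others 3.65 to 5.44). Skamania replicate 1 was high for LSS_UF_16556 (-0.28, the others -2.60 to -1.51) and low for LSS_UF_24595 (1.38, the others 1.98 to 2.36). Skamania replicate 4 was low for LSS_UF_18675 (-2.81, the others -1.05 to -0.056).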

How the results depend on the processing

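The named probes kept their direction in 1136 of 1137 values under 23 settings and 15 fits without 1 array. The exception was LSS_UF_10581 within slide 2, at -1.40, and the cause was not tested. Named probes were chosen on these same arrays, so a kept direction was largely set in advance. Settings that changed only the filter or the priors left the differences as they were. The single call, LSS_UF_21279, kept its direction in all of these settings and fits. It was called in 15 of 20 alternatives other than single slides or single arrays left out. It was not called with median centring (adjusted p = 0.0796), no scaling (0.999), normexp (0.0884), slide as a fixed block (0.0999) or the replicate block (0.311). The number of called bright probes was 0 with median centring, no scaling, normexp, slide as a fixed block and within each of slides 1, 2 and 3; at an unadjusted p under 0.05 limma then found 608, 227, 538, 561, 283, 237 and 279 probes. It was 2 when 12 of 15 arrays sufficed for the rule on background, 2 with the first principal component as a covariate, 18 with array weights (14 higher, 4 lower) and 646 of 14758 with no filter on dim probes (632 higher, 14 lower). Leaving out 1 array gave 0 to 13 calls, with 13 without Skamania replicate 3, 4 without Skamania replicate 4, 2 without Longview replicate 2 or 5 or Skamania replicate 6, and 0 without Longview replicate 1, 3 or 6 or Skamania replicate 1, 2 or 8. The median difference was -0.00073 with quantile normalization, -0.023 with median centring, -0.0019 with the 75th percentile of bright probes, -0.00022 with the authors' deposited log2 values, 0.13 with no scaling, 0.069 with normexp, 0.072 and 0.11 with the looser and with no filter, 0.058 and 0.026 within slides 2 and 3, and 0.031 to 0.064 with 1 array left out. The third component over 1000 probes, matched by rank alone and ordering the fish differently, had a score difference of -12.5 (exact permutation test, adjusted p = 0.151). The replicate numbers are not a known pairing: same-numbered Longview and Skamania arrays correlated between -0.342 and 0.486 in their deviations, over 0.1 in 3 of 7 pairs, and 1 of 7 Longview arrays correlated best with its own number. With the replicate block 1 probe was called, LSS_UF_14123 (2.40, adjusted p = 0.0214). Dim probes are limited by signal over background and were left out by the rule.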
